A study of Mus musculus with 4 samples.

Results

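The resistin genes Retn, Retnlg and Retnla were examined in RNA-seq libraries of mouse tibial bone marrow, as 3 of the 55401 genes in the deposited tables. They were chosen by name because Retn was higher after exercise, so every difference of these 3 genes between the groups is given as a description, with no test. All mice were male WT C57/B6 animals that received the high-fat diet (HFD) from the age of 8 weeks. The HFD group had no other intervention (2 libraries), and the HFD and Exercise group also ran on a treadmill at moderate intensity for 12 weeks (2 libraries). No mice on a regular diet were sequenced among these libraries, so both groups share the diet. The labels number the libraries as replicates, and they do not say whether each came from a separate mouse, so the spread between them may be partly technical. The labels also name mesenchymal stem cells and fibroblast, whereas the marrow was collected whole by centrifugation.

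Resistin, the product of Retn, is a small cysteine-rich secreted hormone that rodents make mainly in white fat, and it is known for its rise in obesity and its effect on insulin action in the liver. The resistin-like proteins share its cysteine pattern but come from other cells. Retnlg is expressed in bone marrow and in neutrophils, Retnla in macrophages that respond to IL-4 and IL-13 through the factors STAT6 and C/EBP, and Retnlb, the fourth gene of the mouse family, in goblet cells of the gut.

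Values are FPKM (fragments counted per length of transcript and per depth of the library), summed over the transcripts of each gene and scaled between the libraries. FPKM is a level per length, so genes can be compared with each other. The libraries held 53038186 and 50423542 read equivalents of 150 bases in HFD and 44310505 and 46668748 in HFD and Exercise. Hematopoietic genes dominated them. S100a8 of neutrophils reached from 11901 to 35869 scaled FPKM, and the 12 genes of a stroma and fibroblast list summed to between 284 and 393. Within that list Cxcl12, the chemokine of marrow stroma, had from 88.4 to 142 and Col1a2 from 4.97 to 7.32, while Pdgfra and Col3a1 stayed below 1 in every library. Stromal transcripts were thus present, at levels that differed widely between the genes. The libraries are described here as marrow, as their titles have it. In bulk RNA, fewer cells of a type and less RNA per cell cannot be told apart.

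Retn stands alone on chromosome 8, and the resistin-like genes lie in a row on chromosome 16. In GRCm38, Retn (ENSMUSG00000012705.16) runs from 3655770 to 3660110 on the plus strand of chromosome 8 and has 2 annotated transcripts. Retnlb (48816856 to 48818892), Retnla (ENSMUSG00000061100.5, 48842551 to 48844461) and Retnlg (ENSMUSG00000022651.6, 48872621 to 48874496) follow each other on the plus strand of chromosome 16. Retnla and Retnlg are 28.2 kb apart. All of them are annotated as protein-coding, and no other annotated gene overlaps a member.

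The sequences before the start sites are shown first, because Retnla and Retnlg have like promoters and very unlike levels in this tissue. The 250 bases upstream of each start were taken from RefSeq (GRCm38.p6, plus strand), where all 3 members were found by symbol. Capitals mark matches, on either strand, to the STAT6 motif (TTC and GAA, 4 bases apart), TTGCNNAA (letters close to a C/EBP site) and TATAAA (the TATA box), and no matches overlapped.
Retn, chr8:3655520-3655769: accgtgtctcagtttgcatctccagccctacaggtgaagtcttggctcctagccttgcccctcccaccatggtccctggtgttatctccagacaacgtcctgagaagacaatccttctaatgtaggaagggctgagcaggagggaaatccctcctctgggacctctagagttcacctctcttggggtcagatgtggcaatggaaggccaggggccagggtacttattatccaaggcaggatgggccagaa
Retnla, chr16:48842359-48842608: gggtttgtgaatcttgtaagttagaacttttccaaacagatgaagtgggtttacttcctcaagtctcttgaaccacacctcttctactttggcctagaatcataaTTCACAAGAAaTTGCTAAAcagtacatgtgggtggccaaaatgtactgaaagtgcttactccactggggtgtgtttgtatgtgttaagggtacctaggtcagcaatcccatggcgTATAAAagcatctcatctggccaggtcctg
Retnlg, chr16:48872358-48872607: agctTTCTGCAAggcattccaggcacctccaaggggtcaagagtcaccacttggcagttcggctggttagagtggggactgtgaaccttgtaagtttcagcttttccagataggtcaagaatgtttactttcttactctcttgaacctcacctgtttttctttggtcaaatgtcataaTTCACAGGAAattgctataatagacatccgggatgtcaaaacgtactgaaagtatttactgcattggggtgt

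The Retnla and Retnlg windows aligned over 178 columns with 77.5% identity, the upstream end of the Retnla window matching the downstream end of the Retnlg window. Within that stretch both hold the STAT6 motif, as TTCACAAGAA from position -145 in Retnla and as TTCACAGGAA from -72 in Retnlg, counted from the start site. The motif occurs in 5.85% of 32851 promoter windows of this length. In Retnla the C/EBP-like match TTGCTAAA begins at -134 and TATAAA at -30. Retnlg has 1 C/EBP-like match on the minus strand, printed as TTCTGCAA, from -246, and no TATAAA in the window. The aligned stretch ends at -74 in Retnla and at -1 in Retnlg. The part of Retnlg that would match the Retnla TATAAA thus lies past the window and was not searched. TTGCNNAA occurs in 9.56% and TATAAA in 12.4% of the windows. Retn had no match to any of the 3 motifs and aligned with Retnla and Retnlg at 49.1% and 49.6% identity. The RefSeq starts of Retnla and Retnlg are not the starts in the deposited annotation, which are 48842551 and 48872621. The TATAAA of Retnla lies downstream of its deposited start.

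The coding sequences are shown where they are most alike, because reads from an abundant gene could be assigned to its copy. Between Retnlg and Retnla the coding sequences were 71.3% identical, and between Retnlg and Retnlb 72.9%. Retn shared only 55.0% with Retnlg, 50.2% with Retnla and 58.1% with Retnlb. The coding sequence has 114 codons without the stop in Retn, 117 in Retnlg, 138 in Retnla and 105 in Retnlb. The longest identical runs are in capitals, first 42 bases shared by Retnlg (coding bases 1 to 79 printed) and Retnla (61 to 142), from the coding sequence of GENCODE vM21.
Retnlg: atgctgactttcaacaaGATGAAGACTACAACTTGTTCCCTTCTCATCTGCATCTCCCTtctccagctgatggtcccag
Retnla: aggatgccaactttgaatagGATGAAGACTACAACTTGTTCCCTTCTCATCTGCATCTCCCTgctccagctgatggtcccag

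Retnlg (coding bases 224 to 289) and Retnlb (188 to 253) shared a run of 26 bases, in a stretch rich in cysteine codons.
Retnlg: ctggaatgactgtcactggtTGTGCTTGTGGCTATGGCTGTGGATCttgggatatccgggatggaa
Retnlb: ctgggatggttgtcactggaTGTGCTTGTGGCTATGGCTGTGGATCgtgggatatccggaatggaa

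Over whole transcripts the longest shared run was 49 bases for Retnlg and Retnla and 26 bases for Retnlg and Retnlb, against a read length of 150 bases. Retn shared at most 12 bases in a row with any of them. How the reads of near-identical stretches were split was not given in the sources used here, so low values of Retnla and Retnlb are uncertain.

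Retnlg was the dominant gene of the family in this marrow by a wide margin. It made up from 99.6% to 99.9% of the summed FPKM of the 4 family genes in each library, and it ranked between 12 and 32 among all 55401 genes. Retn was at a few FPKM, Retnlb below 1 FPKM and Retnla close to or at 0. The order Retnlg, Retn, Retnlb, Retnla was the same in all 4 libraries, and the ranges of neighbours in that order did not overlap. Each library had at least 2.97 times as much Retn as Retnlb.

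**Figure D1:**
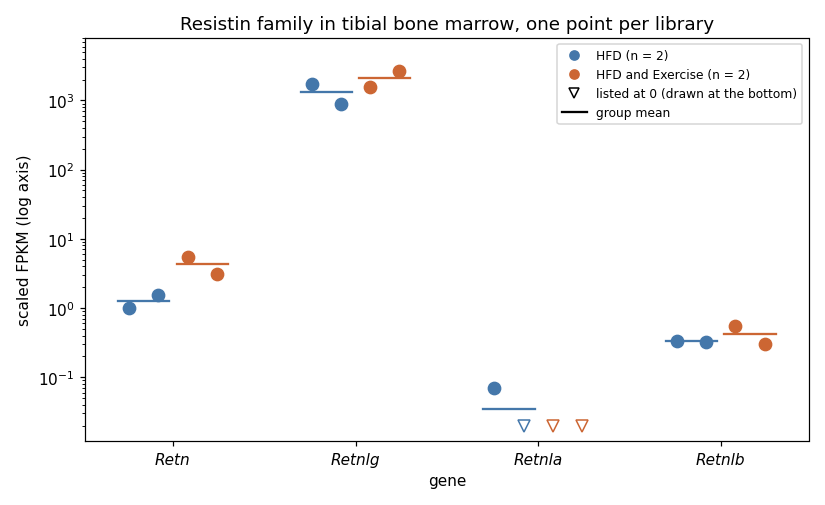
Scaled FPKM (vertical log axis) of the 4 resistin family genes (horizontal axis), with 1 point per library, HFD in blue and HFD and Exercise in orange, and a line at each group mean. Retnlg lies between 893 and 2676, Retn between 0.991 and 5.44, Retnlb between 0.299 and 0.553, and Retnla is listed at 0 in 3 of the 4 libraries (open triangles).

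Retn, the resistin gene, had the largest difference of the family. Its scaled FPKM was 0.991 and 1.53 in the HFD libraries and 5.44 and 3.07 in the HFD and Exercise libraries. Both exercised libraries lay above both HFD libraries. The group means were 1.26 ± 0.384 (SD, n = 2) and 4.26 ± 1.68 (SD, n = 2), a ratio of 3.37. On the scale of log2(FPKM + 0.1), the difference was 1.65 with a standard error of 0.45. The gap between the libraries of 1 group was 0.58 in HFD and 0.81 in HFD and Exercise, and the gap between the higher HFD library and the lower exercised library was 0.95. These values rest on 59, 90, 285 and 147 read equivalents in the order of the libraries above, so the counting depth behind Retn is modest.

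A gene was called at an unadjusted limma p under 0.05 and a log2 difference beyond 1, the thresholds of the study's methods. In HFD and Exercise 186 genes were called higher, 1.0% of the 18596 genes tested, and 510 genes were called lower (2.74%). This contrast was used to choose Retn, so no call is read for it. Groups that do not overlap, with the exercised libraries higher, were found for 14.3% of all genes tested, and with the exercised libraries lower for 18.3%. After Benjamini-Hochberg adjustment 0 genes passed 0.05 in limma, with or without voom, while 940 (5.05%) had an unadjusted p under 0.05. The called share was 3.99% with the replicate number as a block and 2.45% with voom. The log2 difference of Retn was 1.35 without HFD replicate 1 and 1.93 without HFD replicate 2. It was 1.24 without HFD and Exercise replicate 1 and 2.04 without HFD and Exercise replicate 2.

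The reads of Retn came almost wholly from its longer-spanning transcript of 5 exons and 874 bases. That transcript had 1.02 and 1.60 deposited FPKM in HFD and 5.23 and 2.90 in HFD and Exercise. The other transcript, with 4 exons and 1139 bases, was listed at 0 in 3 libraries and at 0.242 in HFD and Exercise replicate 1, from 16 read equivalents. That is 4.41% of the Retn level in that library.

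Retnlg, the resistin-like gene of marrow neutrophils, was abundant in both groups and its groups overlapped. Its scaled FPKM was 1746 and 893 in HFD and 1550 and 2676 in HFD and Exercise. From low to high, the order was HFD replicate 2, HFD and Exercise replicate 1, HFD replicate 1 and HFD and Exercise replicate 2, so the libraries of the 2 groups alternate. The means were 1319 ± 603 (SD, n = 2) and 2113 ± 796 (SD, n = 2). The log2 difference of 0.71 (standard error 0.46) was smaller than the gap of 0.97 between the HFD libraries and the gap of 0.79 between the exercised ones. It moved from 0.21 without HFD replicate 2 to 1.18 without HFD replicate 1. From 35436 to 86968 read equivalents stand behind each value, so it is the spread between libraries, and not the depth, that limits this comparison.

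Retnla, a marker gene of alternatively activated macrophages, was barely present. It was listed at 0.0711 deposited FPKM in HFD replicate 1, from 3 read equivalents assigned to 1 of its 2 transcripts, and at 0 in the other 3 libraries. In those libraries 3 reads would be worth from 0.0781 to 0.0865 FPKM. Its mean was below the minimum of 0.1 FPKM, so it was not among the genes tested, and no fold is given. A difference between the groups was not detectable at this depth.

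Retnlb, the goblet cell member of the family, was low in every library. Its scaled FPKM was 0.334 and 0.323 in HFD and 0.553 and 0.299 in HFD and Exercise, from 16, 15, 23 and 11 read equivalents. The groups overlapped, and the log2 difference was 0.25 with a standard error of 0.64. Retn was 2.97 and 4.75 times as abundant as Retnlb in the HFD libraries and 9.84 and 10.3 times in the exercised libraries. HFD and Exercise replicate 2 had the highest Retnlg and the lowest Retnlb.

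The ratio of Retnlg to Retn did not separate the groups. It was 1761 and 582 in HFD and 285 and 873 in HFD and Exercise. On the log2 scale the difference between the groups was -1.02, against a spread between libraries of 1.14 (pooled SD). Among the libraries of each group, the one with more Retn had less Retnlg.

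The marker genes of the cells known for each member were followed in the same libraries. The 20 late neutrophil genes, fixed as a list with the earlier results known, had a summed scaled FPKM of 54101 and 31215 in HFD and of 41184 and 73022 in HFD and Exercise. From low to high, the 4 libraries came in the same order for this sum as for Retnlg. S100a8, a calcium-binding protein of the neutrophil cytosol, had 20818 and 11901 in HFD and 16107 and 35869 in HFD and Exercise. Chil3, a chitinase-like protein that marrow neutrophils and alternatively activated macrophages both express, had 1189 and 774 against 1057 and 1841. The part of the neutrophil content of the samples in the Retnlg values was not tested.

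Of the 20 late neutrophil genes, 1 was called higher and none lower, against 3.74% called in either direction among all genes tested. An unadjusted limma p under 0.05 was found for 3 of them, beside 5.05% of all genes tested. The called gene was Il1b, the cytokine interleukin-1 beta, at 24.1 and 25.5 in HFD and 56.9 and 69.2 in HFD and Exercise (log2 difference 1.34, standard error 0.21, adjusted p = 0.794 in limma). Log2 differences were above 0 for 19 of the 20 genes, beside 48.3% of all genes tested, with a median of 0.42 against -0.02 for all genes tested. That count fell to 11 without HFD replicate 2 and to 12 without HFD and Exercise replicate 2, with medians of 0.07 and 0.06. The secondary granule gene Ngp was the 1 gene below 0, at -0.22. Both exercised libraries lay above both HFD libraries for 7 of the 20 genes, beside 14.3% of all genes tested. They lay below for 0 of them, beside 18.3%. The 9 early neutrophil genes found, such as Elane and Mpo, had a sum of 1474 and 836 in HFD and 1641 and 1119 in HFD and Exercise. None was called. Log2 differences were above 0 for 8 of these 9, with a median of 0.32. Without HFD replicate 2 that count was 4 and the median -0.24, and without HFD and Exercise replicate 1 they were 4 and -0.06.

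Lists of other marrow cells were followed for the makeup of the libraries. Among all genes tested 1.0% were called higher and 2.74% lower. The 9 monocyte genes had 0 called and a median log2 difference of -0.05. The 10 erythroid genes had 0 called and a median of -0.17. The 10 B lineage genes had 2 called lower (Cd79a and Igll1, of the B cell and pre-B cell receptors) and a median of -0.40. Of these 10, 1 lay above 0, beside 48.3% of all genes tested, and 1 or 2 did with 1 library left out. Both exercised libraries lay below both HFD libraries for 5 of them, beside 18.3% of all genes tested. The 10 eosinophil genes had 1 called higher, Prg2, a granule protein, at 13.6 and 15.4 in HFD and 27.9 and 53.2 in HFD and Exercise. Log2 differences of that list were above 0 for 5 genes and below 0 for 5, with a median of 0.02, and the granule gene Prg3 was at -1.38 without being called. The 12 stromal genes had 1 called lower, the collagen gene Col1a1, while 7 of them lay above 0 and the median was 0.15. Without HFD and Exercise replicate 1 the eosinophil median was 0.90, and without HFD and Exercise replicate 2 the stromal median was -0.15. The part of these cells in the Retn and Retnlg values was not tested.

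**Figure D2:**
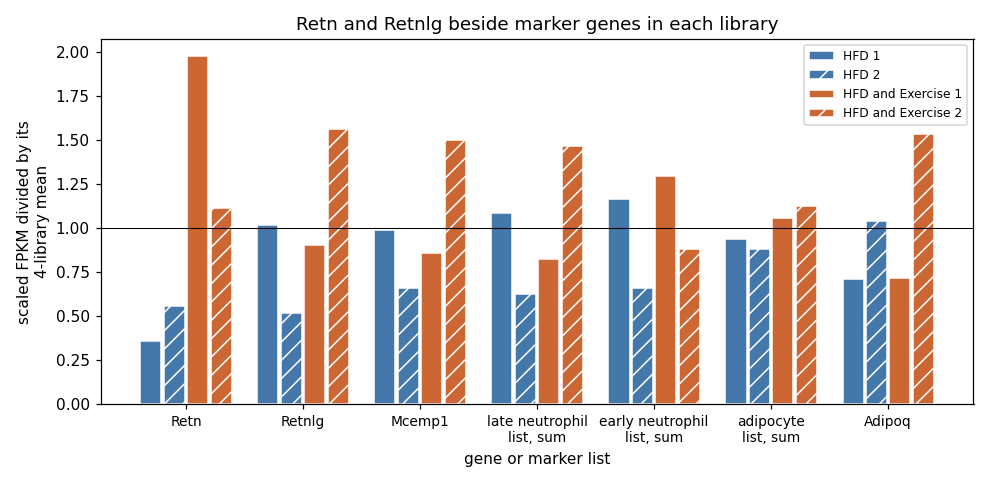
Scaled FPKM in each library divided by the mean over the 4 libraries (vertical axis, line at the mean) for Retn, Retnlg, Mcemp1, Adipoq and the summed marker lists (horizontal axis), with HFD in blue, HFD and Exercise in orange and replicate 2 hatched. Retnlg, Mcemp1 and the late neutrophil sum are lowest in HFD replicate 2 and highest in HFD and Exercise replicate 2. Retn and the early neutrophil sum are highest in HFD and Exercise replicate 1.

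Adipocyte genes differed among themselves in their order across the libraries. Leptin (Lep) was listed at 0 in all 4 libraries, and Plin1, which coats the lipid droplet, was listed at 0 in 3 and at 0.0551 scaled FPKM in HFD replicate 1. Adipoq, which encodes adiponectin, had 4.03 and 5.90 in HFD and 4.07 and 8.70 in HFD and Exercise. The groups of Adipoq overlapped, and the library with the most Retn, HFD and Exercise replicate 1, had nearly the least Adipoq. Pparg, the fat cell regulator that acts on many adipokine genes, had 5.22 and 8.92 against 7.59 and 6.34. Fabp4, a fatty acid carrier of adipocytes that macrophages and endothelium also make, had 59.2 and 57.0 against 103 and 78.1, an order in which the exercised libraries were the higher ones and replicate 1 the highest, as for Retn. Of the 15 adipocyte genes, 10 reached the minimum level and none was called, beside 3.74% of all genes tested. Log2 differences were above 0 for 7 of the 10, beside 48.3% of all genes tested, with a median of 0.06 against -0.02. Without scaling that count was 4. Both exercised libraries lay above both HFD libraries for 2 of the 10, Fabp4 and Lpl, beside 14.3% of all genes tested. The sum over the list was 207 and 195 in HFD and 233 and 248 in HFD and Exercise. Its highest genes by mean were Fabp4, which other cells also make, then Acsl1 and Cd36. Acsl1 had 63.15 and 57.71 against 63.51 and 63.05, and Cd36 had 47.0 and 42.4 against 25.8 and 56.2. The groups of Acsl1 and Cd36 overlapped, so the sum does not stand for fat cells alone. The part of fat cells in the Retn values was not tested.

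Retnla is commonly read together with other genes of alternative activation, and most of those were low, apart from Chil3. Arg1, an arginine-degrading enzyme, had 0.123 and 0.0451 in HFD and 0.744 and 0.177 in HFD and Exercise. Mrc1, the mannose receptor, had 7.27 and 7.59 against 6.40 and 6.06, and Cd163, the hemoglobin scavenger receptor, had 2.79 and 3.36 against 1.48 and 1.92. Both exercised libraries lay below both HFD libraries for 5 of the 15 macrophage genes, Mrc1 and Cd163 among them, beside 18.3% of all genes tested. They lay above for 4 of the 15, Arg1 among them, beside 14.3%. Neither Mrc1 nor Cd163 passed the thresholds. None of the 15 macrophage genes was called, with 7 of them above 0 and a median log2 difference of -0.01. The background of 3.74% called amounts to less than 1 gene for a list of this length.

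Receptors and signaling genes reported for resistin were measured next. Cap1, an adenylyl cyclase-associated protein reported as a resistin receptor on monocytes, was the highest of them, at 134 and 77.7 in HFD and 81.6 and 126 in HFD and Exercise. Tlr4, the endotoxin receptor that resistin has also been reported to use, had 4.06 and 2.49 against 3.79 and 7.60, and its partner Ly96 had 5.25 and 3.81 against 5.25 and 8.45. The groups of these 3 genes overlapped. Ror1, a receptor reported for resistin in fat cell precursors, was listed at 0 in both HFD libraries and at 0.0224 and 0.0635 in the exercised ones, below the minimum level. Btk, a kinase reported to bind the Retnla protein, had 27.4 and 27.1 against 37.1 and 27.8.

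Among all genes tested, 3.74% were called and 5.05% had an unadjusted limma p under 0.05. Of the 16 genes of that list, 15 were tested, none was called and 1 had such a p. Log2 differences were above 0 for 13 of them, beside 48.3% of all genes tested, with a median of 0.32. That count was 12 without scaling and 10 without HFD replicate 2 or without HFD and Exercise replicate 2, where the median was 0.21 in both cases. With voom the median was 0.13. The gene with the smallest p was Socs3, the inhibitor of cytokine signaling that resistin is known to induce in fat cells, at 3.28 and 3.30 in HFD and 6.71 and 5.50 in HFD and Exercise. Its log2 difference of 0.87 (standard error 0.29, adjusted p = 0.959 in limma) did not reach the fold threshold. Socs3 lay higher in both exercised libraries.

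The regulators known for these genes were mostly detected. Cebpa, which drives Retn in fat cells, had 17.2 and 17.97 in HFD and 13.9 and 20.7 in HFD and Exercise. Cebpe, the granulocyte factor of late neutrophil genes, had 57.5 and 44.3 against 71.5 and 68.5, and Stat6, the factor of the IL-4 response, had 28.5 and 29.6 against 35.4 and 29.9. Il13 was listed at 0 in all 4 libraries, and Il4 had from 0.512 to 1.23 with overlapping groups. Of the 15 regulators, 14 were tested and none was called, beside 3.74% of all genes tested. The median log2 difference was 0.15, against -0.02 for all genes tested. The gene with the smallest p was Klf4, a monocyte and macrophage factor, at 9.35 and 10.2 in HFD and 5.16 and 5.50 in HFD and Exercise (log2 difference -0.87, standard error 0.25, adjusted p = 0.959 in limma).

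**Figure D3:**
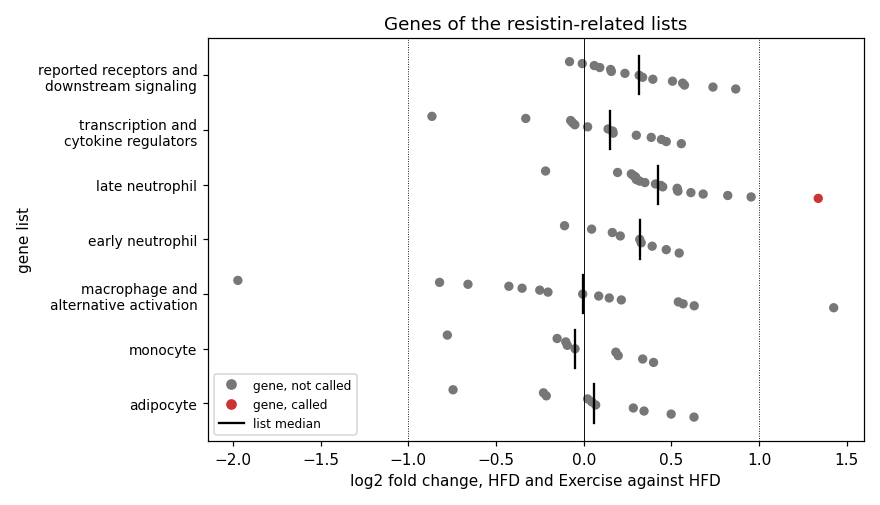
Log2 difference of HFD and Exercise against HFD (horizontal axis) for the genes of 7 lists (vertical axis), with 1 point per gene tested, called genes in red, a bar at the list median and dotted lines at the fold threshold. Il1b in the late neutrophil list is the 1 called gene, and the list medians lie between -0.05 and 0.42.

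The genes next to Retn were examined to see whether its neighbourhood shared the difference. Within 100 kb of Retn, 19 genes are annotated, of which 15 were tested. None of them was called, beside 3.74% of all genes tested. Of these 15 genes, 10 lay above 0, beside 48.3% of all genes tested. Their median log2 difference was 0.22, against -0.02 for all genes tested. Stxbp2, a vesicle fusion gene 12.1 kb to the left, had 69.4 and 75.1 in HFD and 103 and 84.3 in HFD and Exercise, a log2 difference of 0.37. Mcemp1, a myeloid membrane protein gene 5.6 kb to the right, had 98.4 and 65.6 against 85.7 and 149, which is the order of Retnlg and not of Retn.

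The nearest annotated gene to Retn was Gm44776, which starts 0.5 kb beyond its end on the opposite strand. Its scaled FPKM was 0.349 and 0.0784 in HFD and 3.38 and 0.498 in HFD and Exercise, from 9, 2, 76 and 10 read equivalents. The log2 difference of 2.35 (standard error 1.004) rested mainly on HFD and Exercise replicate 1, the library with the most Retn, and the gene was not called. The kit named in the methods does not mark strand, so reads from a longer Retn transcript and from Gm44776 cannot be told apart there.

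Around Retnla and Retnlg, 7 genes are annotated within 100 kb when the family genes are counted, and 3 were tested. None was called, beside 3.74% of all genes tested. Dzip3, 49.7 kb to the right of Retnlg, had 2.51 and 1.95 in HFD and 2.04 and 3.59 in HFD and Exercise.

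**Figure D4:**
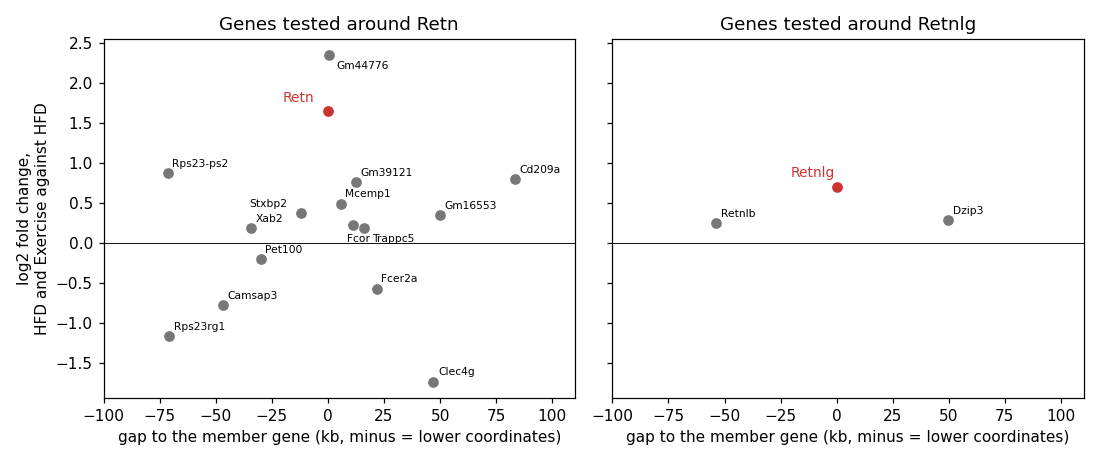
Log2 difference of HFD and Exercise against HFD (vertical axis) for the genes tested within 100 kb of Retn (left) and of Retnlg (right), by the gap to that member in kb (horizontal axis). Retn (red, 1.65) is exceeded only by Gm44776 (2.35), and the other 14 genes around it lie between -1.74 and 0.88.

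The genes most like each member were found by the distance between log2 profiles centred on the mean of the 4 libraries, among the 12408 other genes whose mean reached 1 FPKM. For Retn these were Cbr3, Gm22151, Ighv8-12, Proz and 1700102P08Rik, at distances from 0.147 to 0.406. Cbr3, a carbonyl reductase gene on chromosome 16, had 0.477 and 0.649 in HFD and 2.62 and 1.43 in HFD and Exercise, and Gm22151 rested on only 2 to 13 read equivalents. For Retnlg they were D130017N08Rik, Gm8399, Gm16091, Asprv1 and Gm26740, at distances from 0.101 to 0.153. Asprv1, an aspartic protease gene, had 13.1 and 7.44 against 12.6 and 23.0. With only 4 libraries such likeness is common. A correlation of at least 0.95 with Retn was found for 294 genes, and with Retnlg for 514 genes.

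**Figure D5:**
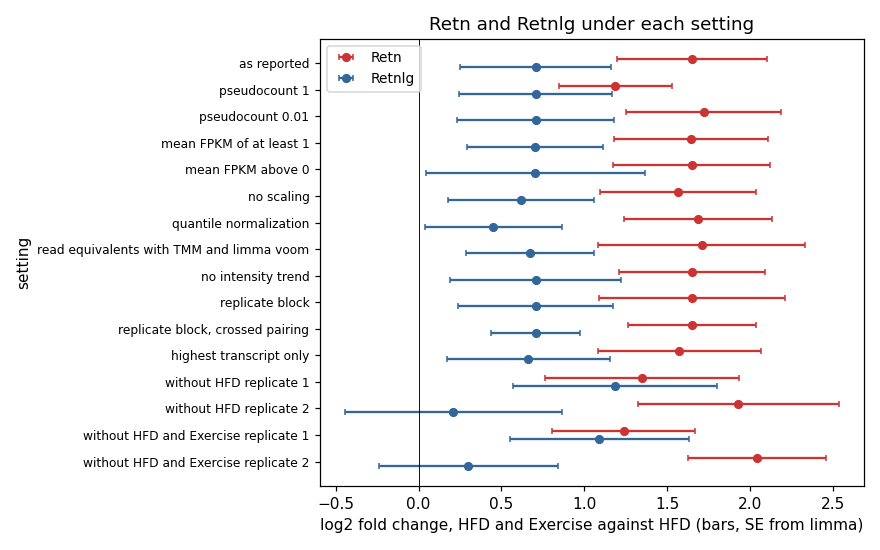
Log2 difference of HFD and Exercise against HFD (horizontal axis, bars show the limma standard error) for Retn (red) and Retnlg (blue) under each processing setting (vertical axis). Retn stays between 1.19 and 2.04 and Retnlg between 0.21 and 1.18.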

How the data were processed

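Bone marrow RNA of 2 HFD and 2 HFD and Exercise libraries was analysed. The libraries were poly-A selected, and the authors used fastp for trimming, discarded rRNA reads, and ran HISAT2 (GRCm38), SAMtools and StringTie (GENCODE vM25), whose versions were not given in the sources used here. The authors deposited 1 table per library with the FPKM and the coverage (a signal not scaled for depth) of 142604 transcripts. Read equivalents are coverage times transcript length over the 150 bases of a read, which are not whole counts. The 37 mitochondrial transcripts are listed at 0 in every library.

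Transcript FPKM was summed to genes with Python 3.11.15 and pandas 2.3.3. The 18596 genes whose mean reached 0.1 FPKM were scaled with median-of-ratios factors (0.945 to 1.04), 0.1 was added, and log2 values were fitted over all genes with limma 3.58.1 in R 4.3.3, with an intensity trend. The authors' test was DESeq2, which takes counts, and the deposited columns are not counts. Fold changes on this scale understate the change of low genes. The fit was tested on simulated data.

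The members, lists and tests were chosen with earlier results of these data known, and the motifs and Retnlb alternatives after the values were seen. Named genes are the members, Retnlb, genes of the lists, genes within 100 kb of a member and the 5 genes nearest to Retn and to Retnlg. With 2 libraries a group, an exact permutation test of 1 value has 0.333 as its smallest two-sided p, so none was used. Alignments were made with Biopython 1.88 and figures with matplotlib 3.10.9. Promoters came from RefSeq (GRCm38.p6) and coding sequences from GENCODE vM21 (GRCm38).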

Additional observations from a re-analysis of the deposited data

How the results depend on the processing

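The log2 differences of Retn and Retnlg moved by less than the spread between libraries and kept their direction under all 15 alternatives. Retn ranged from 1.19 (pseudocount 1) to 2.04 and Retnlg from 0.21 to 1.18. Leaving out 1 library could not reverse Retn, because both its exercised libraries lay above both HFD libraries. The intensity trend and the replicate block leave both differences unchanged by design. With 1 library left out at a time, Retn ranged from 1.24 to 2.04, Retnlg from 0.21 to 1.18, and the log2 ratio of Retnlg to Retn from -1.83 to -0.21. In such a fit the lone library of a group is assumed to vary like the other group. Retnlb turned to -0.11 without HFD and Exercise replicate 1 and reached 0.60 without replicate 2 of that group. No fold was computed for Retnla under any setting.

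The number of genes called, 696, became 222 with a pseudocount of 1, 267 with a minimum mean of 1 FPKM, 455 with voom on read equivalents, 1060 without the intensity trend and 0 with an adjusted p under 0.05. It ranged from 599 (without HFD replicate 2) to 1851 (without HFD and Exercise replicate 2) with 1 library left out, and was 1229 without HFD and Exercise replicate 1.
The late neutrophil count of 1 became 0 with the adjusted p and ranged from 1 to 2 with 1 library left out (Wfdc21 without HFD replicate 1). Adipocyte calls went from 0 to 2 with no minimum (Plin4 and Aqp7, lower). Macrophage calls went from 0 to 1 without scaling, with voom and without the trend (Timd4, lower), and from 0 to 4 with 1 library left out (4 without HFD and Exercise replicate 2: Clec10a and Arg1 higher, Cd163 and Timd4 lower). Regulator calls went from 0 to 1 without HFD and Exercise replicate 1 (Hif1a). The causes were not tested.

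With the replicate number as a block, the Retn and Retnlg differences are the same by design (1.65 and 0.71), 742 genes were called and no call of a list changed. Replicate 1 minus replicate 2 differences of the groups correlated at -0.106 over genes, and at -0.235 over genes with a mean of at least 1 FPKM. The labels do not say whether the numbers pair the libraries, and these correlations cannot decide it. With the numbers crossed, a pairing added after the data were seen, 803 genes were called. Without scaling the median of all genes shifted to -0.10.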
